A study of Mus musculus with 54 samples.

Results

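The mouse genome carries 3 related microRNA clusters, miR-17-92a-1, miR-106a-363 and miR-106b-25, and their products were followed here through the small intestine. All entries of a deposited small RNA table whose plain names (with no added suffix) begin with mir-17-, 18a-, 19a-, 19b-, 20a-, 20b-, 92a-, mir-106a-, mir-106b-, mir-25- or mir-93- were taken, which gave 24 of 2602 entries. Of these 24 entries, 12 belong to miR-17-92a-1, 6 to miR-106a-363 and 6 to miR-106b-25. The name alone fixed which entries were taken, but the clusters were chosen with earlier results of these data known.

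A microRNA is a short RNA that guides Argonaute proteins to messenger RNAs with matching sites and lowers their output, mainly through its seed near the 5′ end. Members of one cluster are cut from a single primary transcript by Drosha and DGCR8 and then by Dicer, yet they fall into several seed families with different sets of targets. The miR-17-92a-1 cluster is known as an oncogenic cluster whose transcription is raised by MYC and E2F factors, and the clusters are widely expressed in proliferating progenitor cells. In the small intestine, proliferating cells and stem cells lie in the crypts and differentiated absorptive cells cover the villi.

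The 30 small RNA libraries came from C57BL/6J mice and fell into 8 groups, which are named by their labels below. Crypts and villi were dissected (4 libraries each). Cells were sorted as Cd24-Low (4) or as Lgr5-High (2), the latter after Lgr5 in the titles but Lgr4 in the source names. Crypt cells sorted by a Sox9-EGFP reporter as Low came from mice on chow (4), from conventionalized mice (4), the usual word for germ-free animals that were later given a microbiota, and from germ-free mice (4), and Negative cells came from mice on chow (4). A further 16 mRNA libraries held Sox9-EGFP Low cells from 4 mice each on chow, on high fat diet, conventionalized and germ-free. A separate table of the authors compared intestinal cells of 2 APC mutant and 2 control samples. The labels give no age, no number of cells per sort, and no genotype for the mice outside the APC comparison, so the line that carried the reporter is known only by its name.

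The arm of each hairpin that carries a miR-17, miR-18, miR-19 or miR-92 seed is shown because these seeds decide which members are read together below. Mature sequences are from RefSeq on GRCm38.p6, each written 5′ to 3′ with the seed, bases 2 to 8, in capitals. Of the 24 entries, 23 had a sequence in that table, and mir-19a-5p did not. The miR-17 seed AAAGUGC was shared by 6 members with 6 different sequences.
mir-17-5p: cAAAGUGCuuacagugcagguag
mir-20a-5p: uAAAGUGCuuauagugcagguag
mir-93-5p: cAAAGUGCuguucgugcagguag
mir-106b-5p: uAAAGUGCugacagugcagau
mir-20b-5p: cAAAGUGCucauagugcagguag
mir-106a-5p: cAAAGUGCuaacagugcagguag
Counted from 1 at the 5′ end, mir-106a-5p differed from mir-17-5p only at U10A, and mir-20a-5p differed at C1U and C12U. The most distant of the 6, mir-93-5p, differed from mir-17-5p at U10G, A11U, C12U and A13C, all outside the seed.

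The miR-92 seed AUUGCAC and the miR-19 seed GUGCAAA each came from 3 entries but only 2 sequences, and mir-18a-5p alone had the seed AAGGUGC.
mir-92a-1-3p and mir-92a-2-3p: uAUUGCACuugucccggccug
mir-25-3p: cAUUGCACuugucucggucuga
mir-19b-1-3p and mir-19b-2-3p: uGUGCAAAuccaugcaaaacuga
mir-19a-3p: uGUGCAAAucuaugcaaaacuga
mir-18a-5p: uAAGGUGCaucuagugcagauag
The sequence of mir-25-3p differed from that of mir-92a-1-3p at U1C, C14U and C18U within their shared length. Because mir-92a-1-3p and mir-92a-2-3p are identical, as are mir-19b-1-3p and mir-19b-2-3p, how their reads were divided between the 2 loci is uncertain. The ratio of mir-19b-2-3p to mir-19b-1-3p was 0.992 to 1.11 in the 30 libraries, whereas that of mir-92a-1-3p to mir-92a-2-3p was 2.08 to 52.3. Values of these 4 entries are therefore values of the entries and not of a locus.

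On GRCm38.p6, the 6 hairpins of miR-17-92a-1 span 836 bp of the plus strand of chromosome 14, from 115043671 to 115044506, inside an exon of the noncoding host gene Mir17hg. The 4 hairpins of miR-106a-363 with an entry here span 730 bp of the minus strand of chromosome X, from 52741838 to 52742567. Of these, Mir106a overlaps an exon of the noncoding gene Kis2, and the other 3 overlap no annotated gene. The 3 hairpins of miR-106b-25 span 498 bp of the minus strand of chromosome 5, from 138165321 to 138165818, inside Mcm7, which encodes a subunit of the replicative helicase. Mir25 and Mir93 overlap an exon of some annotated Mcm7 transcript, and Mir106b lies in an intron. Which transcript holds those exons was not examined, so they need not belong to the protein-coding mRNA.

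Small RNA levels are given as RPMMM, the authors' name for values that sum to 1000000 in each library. Every level is thus a share of what the 2602 entries hold in its library, which need not be all mapped small RNA. Read depth cannot be recovered from these values, and no counting interval is given. For bulk samples, fewer cells of a type and less RNA per cell cannot be told apart. Both fractions of the third chow mouse, Sox9-EGFP Low replicate 3 and Negative replicate 3, carry HFD in their column names although they are labelled as chow. The labels were followed, and values without this mouse are given beside the counts and members that turned on it. Its mRNA column names no diet. This library was the lowest of its group in 12 of the 12 members that average 50 RPMMM or more, and germ-free replicate 3 and crypt replicate 3 were each the lowest of their groups in 11 of the 12. The column names also give a sequencing lane, without the run: all chow Low libraries name lane 1, conventionalized libraries lanes 5, 5, 1 and 3, germ-free libraries lanes 1, 2, 4 and 4, and all crypt and villus libraries lane 4. Negative libraries name lanes 5, 5, 4 and 4, Lgr5-High libraries name lane 8, and Cd24-Low columns name no lane. Summed mesenchymal microRNAs (8 entries) were 13721 to 26171 RPMMM in crypts and 5853 to 52379 in villi, against at most 627 in any sorted library. Whether replicates outside the Sox9-EGFP groups came from separate mice is not stated, and there p-values measure the spread between these samples.

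Together the 24 entries made up 0.752% of the summed RPMMM of the lowest library, a Cd24-Low library, and 17.3% of that of the highest, a crypt library. Of the 24 together, the miR-92 seed carried 53.5% to 96.7%, the miR-17 seed 2.43% to 36.4% and the miR-19 seed 0.0254% to 5.53%. The most abundant of the 24 in every library outside Cd24-Low and Lgr5-High was mir-92a-1-3p, the last microRNA of miR-17-92a-1, and in those 6 libraries it was mir-25-3p. In crypts its levels were 126399, 158360, 116244 and 119145 RPMMM, which gave it rank 1 or 2 among all entries of each library. In Cd24-Low libraries its levels were 1816, 1610.1, 3331 and 1364, with ranks from 36 to 54. The lowest crypt library lay above every library of every other group, and every Cd24-Low and Lgr5-High library lay below every library of the other 6 groups.

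By group mean, mir-92a-1-3p stood at 130037 ± 19359 RPMMM (SD, n = 4) in crypts, 52979.7 ± 26985 in conventionalized Low cells and 48168 ± 22744 in chow Low cells. Villi followed at 47679.7 ± 16547, germ-free Low cells at 26618 ± 12494 and Negative cells at 11597 ± 2172. The Lgr5-High libraries read 2518 and 3096, and the Cd24-Low mean was 2030.3 ± 887. In this order, crypts did not overlap the group that follows, nor did Negative cells, while conventionalized, chow, villus and germ-free groups each overlapped their neighbour.

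**Figure D1:**
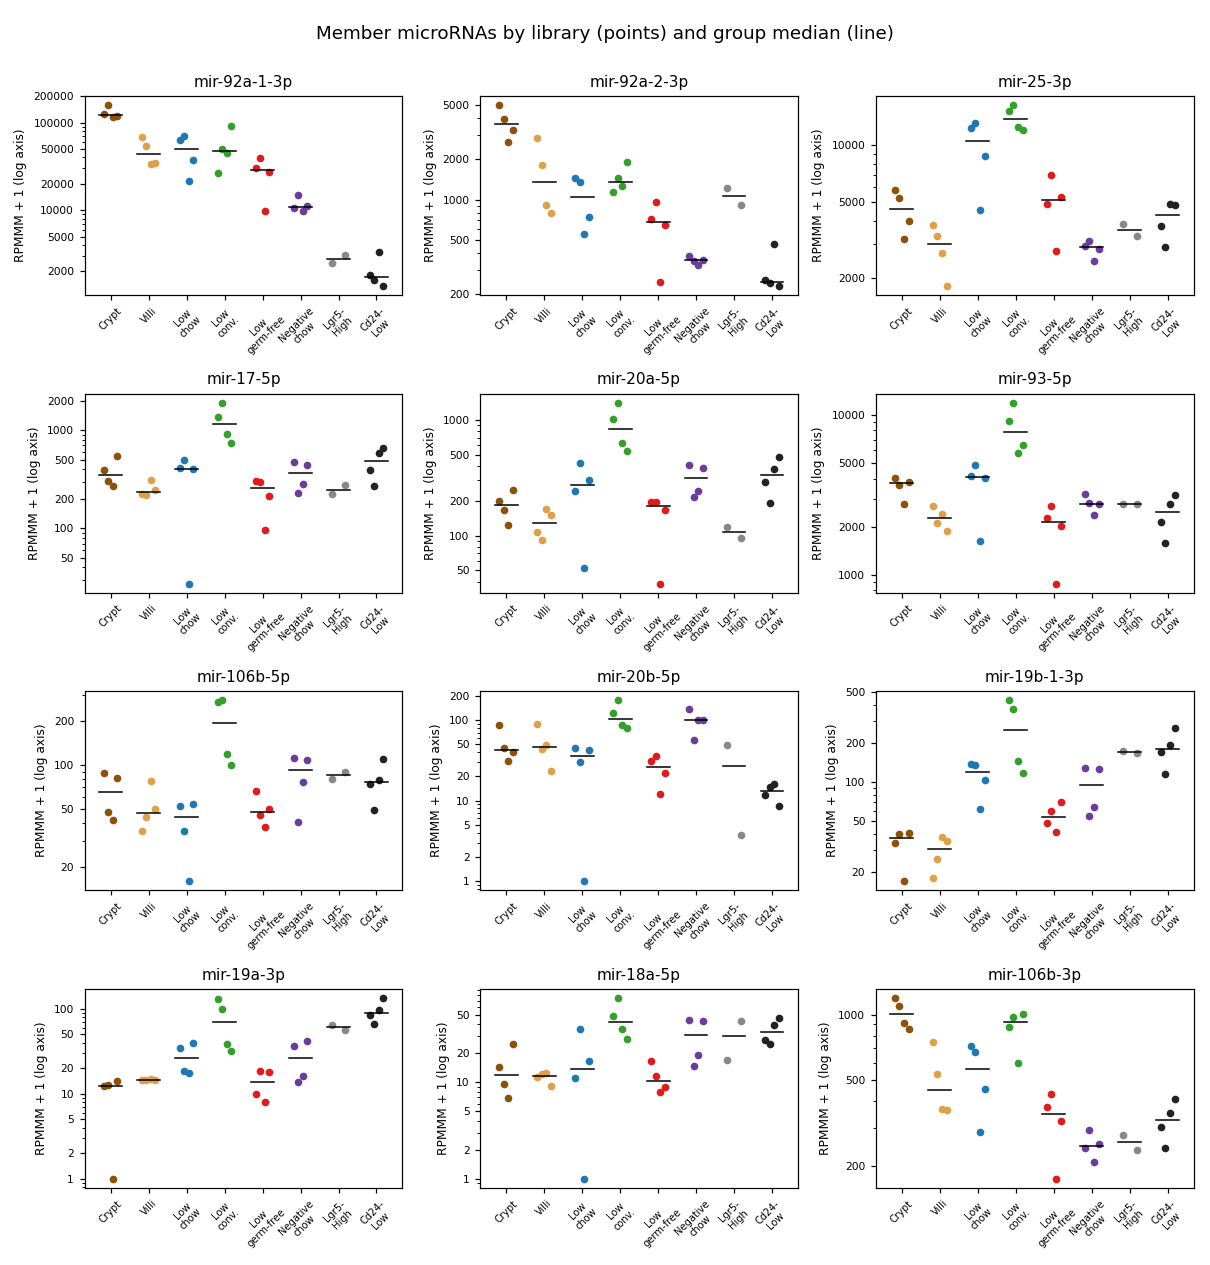
Level of 12 members in each of the 30 small RNA libraries, as RPMMM + 1 on a log axis, by group; points are libraries and lines are group medians. Crypt libraries are highest for mir-92a-1-3p, and conventionalized Low libraries are highest for mir-17-5p and mir-93-5p.

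The other members did not follow that order. Levels of mir-25-3p, which shares the miR-92 seed but lies in Mcm7, were 15234, 16326, 12447 and 12119 RPMMM in conventionalized Low cells and 12359, 13197, 4531 and 8764 in chow Low cells. In crypts they were 5843, 5272, 3208 and 4005, and in Cd24-Low cells 3739, 2906, 4919 and 4848. Conventionalized Low cells had the highest mean and Negative cells the lowest, 2840.0 ± 292 (SD, n = 4), with each group overlapping its neighbour in the order. The neighbouring mir-93-5p, of the miR-17 seed, had means of 8349 ± 2826 in conventionalized, 3669.7 ± 1419 in chow and 1969 ± 781 in germ-free Low cells. Conventionalized Low cells lay apart from the group that followed, and the means of the other 7 groups lay between 1969 and 3670 RPMMM.

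The lead member of the cluster, mir-17-5p, read 1369.9, 1909, 921 and 739 RPMMM in conventionalized Low cells. Germ-free Low cells read 303, 298, 96.2 and 215, and chow Low cells 407, 501, 26.4 and 398, where the low value is replicate 3. No library of another group reached the lowest conventionalized library. The second-highest mean belonged to Cd24-Low cells, 475 ± 174 (SD, n = 4). The entry mir-92a-1-3p, named for the same cluster, had its lowest mean there. With the seed of mir-17-5p, its neighbour mir-20a-5p had means of 901 ± 397 in conventionalized Low cells, 331 ± 121 in Cd24-Low cells and 184 ± 52.3 in crypts. For mir-19b-1-3p, crypts (16.1 to 39.6) and villi (17.2 to 36.5) lay below all sorted libraries, and conventionalized Low cells were highest at 117 to 432.

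Of the 24 entries, 12 averaged 50 RPMMM or more across the 30 libraries and 11 were above 0 in all 30. The 12 entries under 50 were mir-20b-3p, at 0 in all 30 libraries, and mir-25-5p, 19a-3p, 92a-1-5p, 18a-5p, mir-106a-5p, 18a-3p, 93-3p, 92a-2-5p, 20a-3p, 19b-1-5p and 19a-5p. Among them mir-18a-5p, a miR-17-92a-1 member with a seed of its own, had a mean of 22.9 RPMMM and a highest value of 74.0. Of the other arms of the hairpins, mir-106b-3p (mean 524) and mir-17-3p (mean 60.0) averaged over 50 across the 30 libraries, while in Lgr5-High libraries mir-92a-1-5p (mean 169) and mir-25-5p (mean 144) lay above mir-17-3p (mean 54.5).

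Ratios between 2 members within a library differed widely between groups. Such ratios also carry any difference in how well each sequence is captured, which was not measured, so they were compared between libraries only. The ratio of mir-92a-1-3p to mir-17-5p, both named for miR-17-92a-1, was 219.7 to 521 in crypts and 109 to 303.8 in villi. It was 2.10 to 5.92 in Cd24-Low cells and 22.4 to 64.2 in Negative cells. Low cells gave 19.5 to 123 when conventionalized, 98.8 to 133 when germ-free and 94.3 to 813 on chow, where replicate 3 is the highest. Every Cd24-Low library lay below every library of the other groups. The ratio of mir-92a-1-3p to mir-25-3p, which share a seed, was above 1 in every crypt library (21.6 to 36.2). It was below 1 in every Cd24-Low (0.281 to 0.677) and Lgr5-High library (0.655 to 0.934). Reads of mir-92a-1-3p cannot be assigned to a locus, so these are ratios of entries and not of clusters. These ratios are given as a description, with no test.

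**Figure D2:**
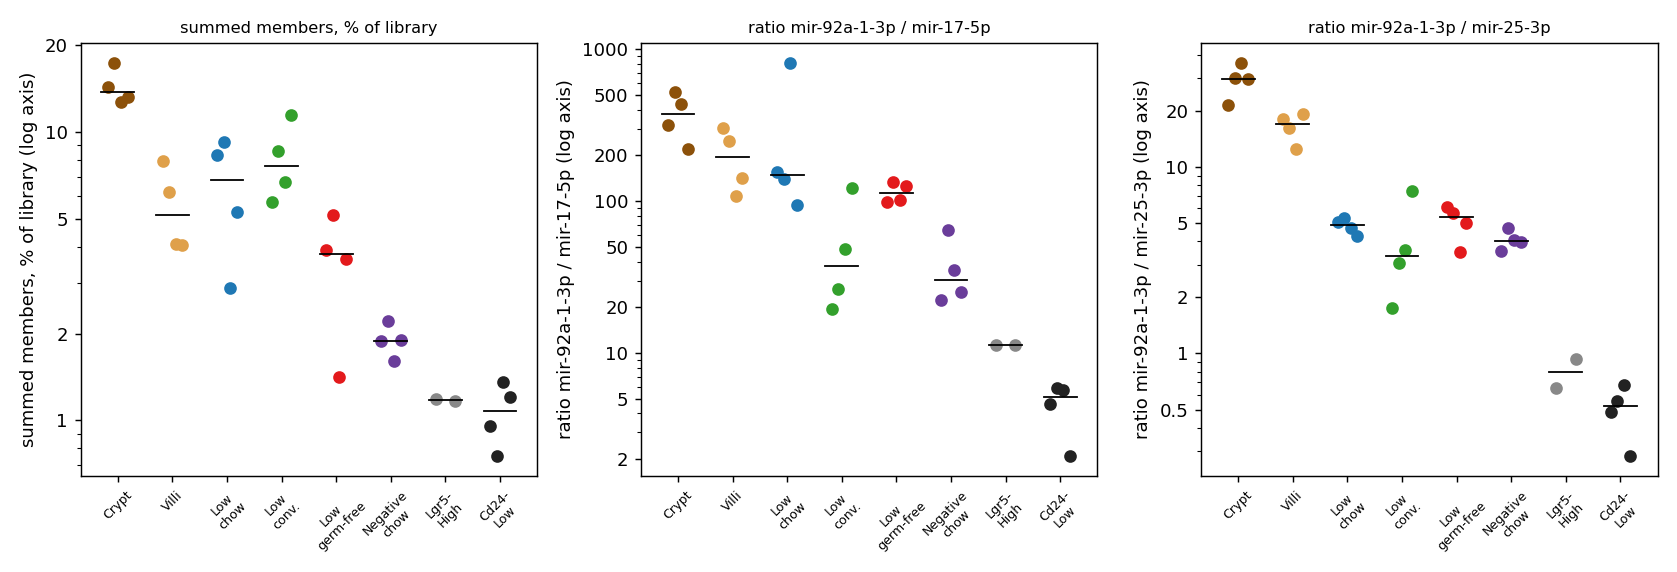
The 3 panels show, by group on log axes, the summed members as a percent of each library and 2 ratios between members within each of the 30 libraries; points are libraries and lines are group medians. The ratio of mir-92a-1-3p to mir-17-5p is 2.10 to 5.92 in Cd24-Low cells and 219.7 to 521 in crypts.

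Crypts were compared with villi first. In crypts 5 members were higher and 0 lower of 10 tested (limma, Benjamini-Hochberg adjusted p under 0.05), where 36.4% of all 239 tested entries were called higher, 10.5% lower and 46.9% in either direction. The entry mir-92a-1-3p, at 68339, 53737, 33599.9 and 35043 RPMMM in villi against the crypt values above, differed by 1.50 ± 0.24 on the log2(RPMMM + 1) scale (SE, n = 4 each, limma adjusted p = 0.00110), and the groups did not overlap. For mir-106b-3p, crypts read 1194, 1098, 909 and 858 and villi 744, 529, 366 and 360.3, which did not overlap and gave 1.07 ± 0.26 (limma adjusted p = 0.00797). The other 3 were mir-92a-2-3p (1.38, whose groups overlapped), mir-17-3p (0.98, tested only through the crypts, as its villus mean was 48.2 RPMMM) and mir-93-5p (0.65).

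In this comparison 4 of the 10 members lay higher in every crypt library than in every villus library, against 32.2% of all entries, and 0 lay lower, against 8.37%. All 10 differences were above 0, with a median of 0.66 against 0.39 over all tested entries. The members' count stood near the 46.9% of all entries called in either direction. Among the called entries, mir-92a-1-3p and mir-92a-2-3p share a sequence. After median-of-ratios scaling, mir-92a-1-3p (1.10), mir-92a-2-3p (0.98) and mir-106b-3p (0.67) still passed, and the differences of mir-106b-5p (-0.07) and mir-20b-5p (-0.35) turned below 0. Without crypt replicate 1, mir-17-3p was lost (limma adjusted p = 0.0536), and without villi replicate 4 both it and mir-92a-2-3p were (limma adjusted p = 0.0508 for each). Marker microRNAs also moved: summed leukocyte entries (6) were 2214 to 5220 RPMMM in crypts and 1065 to 1626 in villi, and erythroid entries (3) 767 to 1264 and 117 to 577. Summed epithelial entries (8) were 109224 to 158653 in crypts and 322566 to 486698 in villi, while the mesenchymal sums given above overlapped. The part of these cell types in the differences was not tested.

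Sox9-EGFP Low cells, crypt cells with a low reporter signal, were compared with Negative cells of the same 4 mice on chow. Higher in Low cells were 4 of 11 members tested and lower were 0, where 47.1% of all 221 entries were higher, 16.7% lower and 63.8% changed in either direction, so the members' count was below the background. Low cells exceeded Negative cells in mir-92a-1-3p, at 63015, 70641, 21445 and 37573 against 10519, 14739, 9863 and 11265 RPMMM, a log2 difference of 1.93 ± 0.37 (SE, n = 4 each, limma adjusted p = 0.00167). For mir-25-3p the Negative libraries read 2950.0, 3129, 2439 and 2842, with a log2 difference of 1.67 ± 0.33 (limma adjusted p = 0.00227). In both, the lowest Low library, replicate 3, lay above the highest Negative library. The other 2 were mir-92a-2-3p (1.42, limma adjusted p = 0.00540) and mir-106b-3p (1.01, limma adjusted p = 0.0231). Thus 3 of the 4 carried the miR-92 seed, though mir-92a-1-3p and mir-92a-2-3p share a sequence. The call of mir-106b-3p was lost without Low replicate 1 (limma adjusted p = 0.0667), Low replicate 2 (0.0670) or Negative replicate 1 (0.0524).

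Members of the miR-17 and miR-19 seeds did not pass in this comparison. The largest negative difference was that of mir-20b-5p, at 43.8, 28.8, 0 and 41.8 RPMMM in Low and 135, 54.8, 100.1 and 99.5 in Negative cells, -2.60 ± 1.17 (limma adjusted p = 0.0808), and it was the 1 member lower without overlap, against 15.8% of all entries, while 3 were higher without overlap, against 46.2%. Without Low replicate 3 it was -1.29 (limma adjusted p = 0.0127), mir-93-5p rose (0.65, limma adjusted p = 0.00541), and the difference of mir-17-5p turned from -0.65 to 0.34. Without both fractions of that mouse the same 3 differences, of which mir-20b-5p was tested only through its Negative mean of 97.5 against 28.6 in Low cells, were -1.25 (limma adjusted p = 0.0223), 0.57 (limma adjusted p = 0.0109) and 0.25, and 6 members passed. Scaling moved the whole comparison: the median of all entries was 0.84 on the deposited scale and -0.07 once median-of-ratios factors were applied, where the calls were 71 higher and 66 lower against 104 and 37. Relative to that scaling, mir-92a-1-3p (1.01) and mir-25-3p (0.75) stayed higher. There mir-92a-2-3p (0.51, limma adjusted p = 0.164) and mir-106b-3p (0.10, limma adjusted p = 0.769) no longer passed. Lower were mir-106b-5p (-2.04), mir-20a-5p (-1.50) and mir-20b-5p (-3.46), and mir-93-5p and both mir-19b entries turned below 0. Like mir-20b-5p, mir-106b-5p was tested only through the Negative group, with means of 83.35 against 38.3 in Low cells. Summed enteroendocrine microRNAs (4 entries, among them mir-375) were 85255 to 191909 RPMMM in Low and 3305 to 5147 in Negative cells, and leukocyte sums 420 to 1986 and 48.5 to 201. Epithelial sums were 197677 to 255870 in Low and 706661 to 728143 in Negative cells, and the part of cell makeup was not tested. These Low and Negative libraries named no lane in common, so lane and fraction cannot be told apart.

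The sorted Lgr5-High and Cd24-Low cells, with only 2 libraries in the former, differed in 4 of 13 members, 3 higher and 1 lower in Lgr5-High, where 16.9% of all 236 entries were higher, 22.5% lower and 39.4% changed. For mir-92a-2-3p, Lgr5-High libraries read 1212 and 916 and Cd24-Low libraries 251, 240.1, 467 and 227 RPMMM, which gave a log2 difference of 1.89 ± 0.34 (limma adjusted p = 0.00372, n = 2 and 4). For mir-20a-5p they read 117 and 94.4 and 287, 191, 373 and 475, with a log2 difference of -1.57 ± 0.38 (limma adjusted p = 0.0140). Neither pair of groups overlapped; 3 members were higher without overlap, against 25.8% of all entries, and 2 lower, against 34.3%. The entry mir-92a-1-3p, with the same sequence as mir-92a-2-3p, differed by 0.55 and did not pass (limma adjusted p = 0.236). Its ratio to mir-92a-2-3p was 2.08 and 3.38 in Lgr5-High and 6.00 to 7.24 in Cd24-Low libraries. How reads were divided between these entries is uncertain, so the mir-92a-2-3p call is one of the entry only. The other 2 calls were the 5′ arms mir-25-5p (2.62), with means of 144 in Lgr5-High and 25.1 in Cd24-Low cells, and mir-92a-1-5p (1.93), with 169 and 46.4. Both were tested only through the Lgr5-High mean, since entries had to average 50 RPMMM over the compared libraries, so their calls are a description. With 1 Lgr5-High library left out, the lone library is assumed to vary like the Cd24-Low libraries, and mir-92a-2-3p was the 1 member that passed in either fit. There mir-25-5p was 2.99 (limma adjusted p = 0.0555) without replicate 1 and under the filter without replicate 2, and all entries called became 54 and 58 against 93. The call of mir-92a-1-5p was also lost without Cd24-Low replicate 1 (limma adjusted p = 0.0586). Summed mesenchymal microRNAs were 7.08 and 7.48 RPMMM in Lgr5-High and 192 to 627 in Cd24-Low cells, and epithelial sums 413531 and 414906 and 449372 to 601959, and their part was not tested. Lgr5-High columns name lane 8 and Cd24-Low columns name none, so lane and group cannot be told apart either.

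The comparison with the most members called was that of germ-free with conventionalized mice, a comparison of Sox9-EGFP Low cells without and with a microbiota. In germ-free mice 11 of 12 tested members were lower and 0 higher, where 28.6% of all 252 entries were lower, 13.9% higher and 42.5% changed in either direction. In the same 11 members every germ-free library lay below every conventionalized library, against 29.8% of all entries. Of the 11, mir-20b-5p (means of 24.3 and 115), mir-106b-5p (48.6 and 190.5) and mir-17-3p (48.8 and 107) averaged under 50 RPMMM in germ-free libraries and were tested only through the conventionalized ones. Of the 9 members at or above that level in both groups, 8 were lower. The median difference of the members tested was -1.95 and that of all entries -0.18. By name the 11 came from all 3 clusters and from the miR-17, miR-19 and miR-92 seeds. The mir-19b entries among them share a sequence. Of the called entries named for the chromosome X cluster, only mir-20b-5p has a sequence not shared with an entry of another cluster. As mir-20b-5p was tested only through the conventionalized group, its call is a description. Whether the chromosome X cluster itself was lower is therefore not settled by these calls.

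The 4 largest differences were those of miR-17 seed members. With the library values given above, mir-17-5p differed by -2.47 ± 0.42 (SE, n = 4 each, limma adjusted p = 0.00335). For mir-20a-5p, germ-free libraries read 196, 193, 37.5 and 165 RPMMM and conventionalized libraries 1025, 1405, 635 and 538, which gave -2.75 ± 0.54 (limma adjusted p = 0.00532). For mir-93-5p they read 2277, 2709.9, 879.5 and 2009 and 9231, 11945, 5775 and 6447, which gave -2.14 ± 0.37 (limma adjusted p = 0.00336). The remaining miR-17 seed members were mir-20b-5p (-2.25) and mir-106b-5p (-1.83), and mir-17-3p fell by 1.15 on the log2 scale.

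Both mir-19b entries fell, mir-19b-1-3p by 2.09 from 432, 366, 145 and 117 in conventionalized to 47.4, 58.6, 40.2 and 69.4 RPMMM in germ-free libraries (limma adjusted p = 0.00561). Of the miR-92 seed, mir-25-3p differed by -1.55 ± 0.27 (limma adjusted p = 0.00336) and mir-92a-2-3p by -1.30 ± 0.39 (limma adjusted p = 0.0219). The other arm mir-106b-3p, of another seed, differed by -1.45. The exception was mir-92a-1-3p. Its germ-free libraries read 29940.4, 39748, 9745 and 27040 and its conventionalized libraries 26728, 50099.5, 44493 and 90598, which overlapped, and its difference of -1.03 ± 0.47 did not pass (limma adjusted p = 0.100). It passed with the spread shared over all groups (limma adjusted p = 0.0401), and without germ-free replicate 3 it was -0.60 (limma adjusted p = 0.227). Whether the members or seeds differed from one another in this contrast was not tested.

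Several measurements move with this comparison. Summed enteroendocrine microRNAs (4 entries) were 201320.0 to 288373 RPMMM in germ-free and 75912 to 168248 in conventionalized libraries, and every library sums to the same total. Mesenchymal sums were 30.02 to 79.1 in germ-free and 141 to 445 in conventionalized libraries, erythroid sums 13.7 to 23.7 and 8.57 to 12.8, and leukocyte sums, which overlapped, 205 to 437 and 228 to 385. After median-of-ratios scaling 11 members still fell. Conventionalized replicates 1 and 2, whose columns name lane 5, both lay above replicates 3 and 4 in 8 of the 12 members. With only conventionalized replicates 3 and 4, a check chosen after seeing the data, 6 of 11 tested members passed and 59 entries were called in all against 107. The members lost were mir-106b-3p, mir-17-3p, mir-20a-5p and mir-92a-2-3p, with limma adjusted p of 0.0556, 0.0682, 0.0545 and 0.0849, and mir-20b-5p was under the filter. Within lane 1, the one conventionalized library lay above the one germ-free library in 12 of 12 members, by 1.49 to 3.24 times, with no replicate check. The part of lane and of cell makeup in the differences was not tested.

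**Figure D3:**
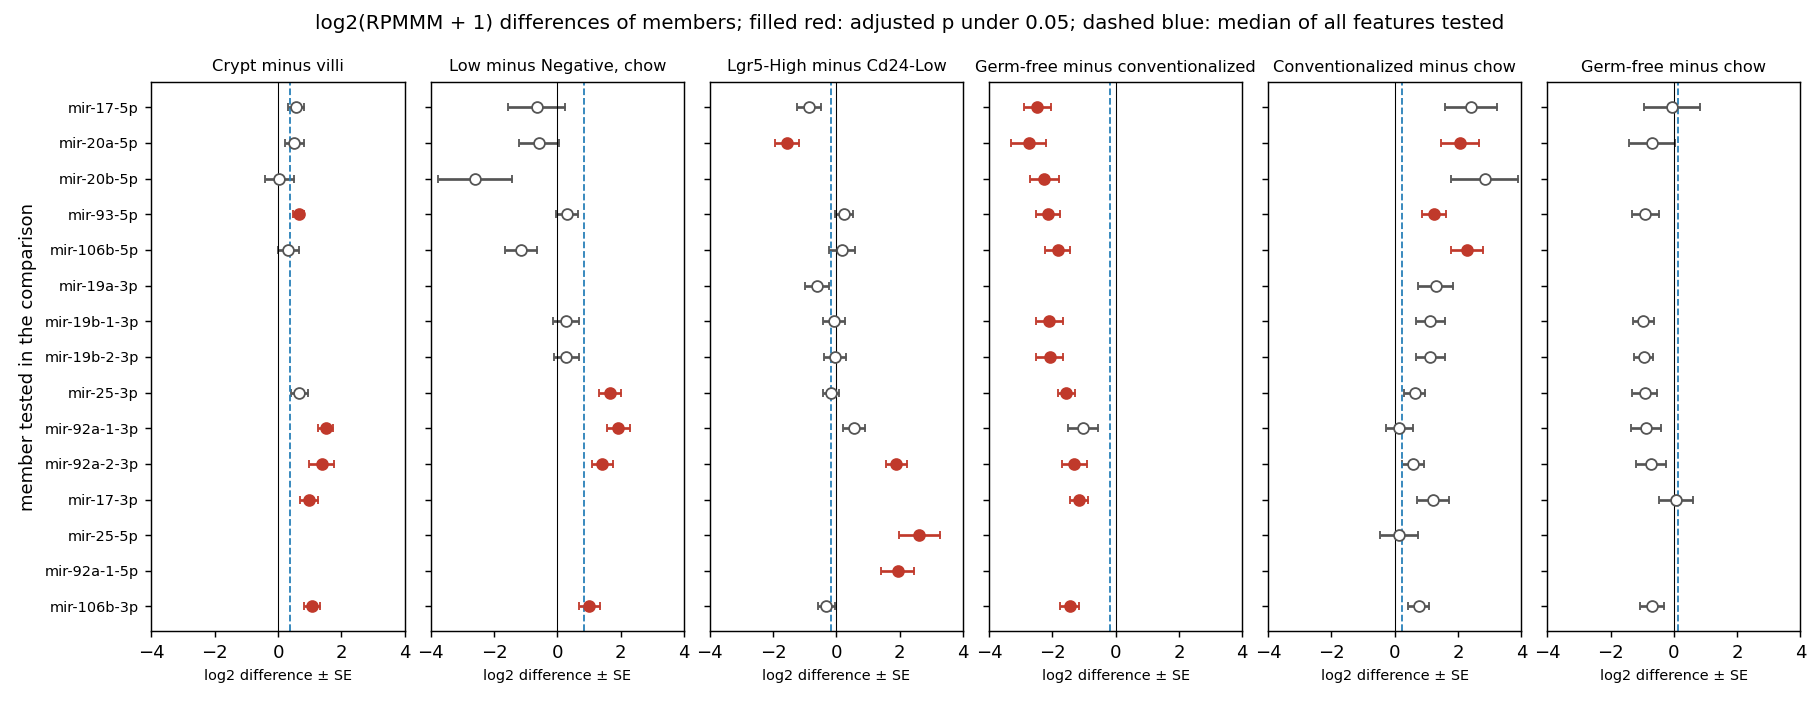
Log2 difference of each tested member in the 6 microRNA comparisons, with standard errors, on the log2(RPMMM + 1) scale; filled points passed the adjusted p of 0.05 and the line in each panel marks the median of all tested entries. In germ-free against conventionalized cells 11 of 12 members are filled and below 0.

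Chow mice gave a further reference, and the 3 comparisons among Low cells share their libraries, so their values stand side by side and were not compared further. In conventionalized against chow Low cells 3 of 14 members were higher and 0 lower, where 15.2% of all 243 entries were higher, 7.41% lower and 22.6% changed. They were mir-106b-5p (2.29 ± 0.50, limma adjusted p = 0.0223), mir-20a-5p (2.06 ± 0.59, limma adjusted p = 0.0367) and mir-93-5p (1.24 ± 0.37, limma adjusted p = 0.0399), all of the miR-17 seed. Of the 11 members that averaged 50 RPMMM or more in both groups, 2 were called, mir-20a-5p and mir-93-5p. The difference of mir-17-5p was 2.41 ± 0.81 and missed the threshold (limma adjusted p = 0.0525), as did that of mir-20b-5p, 2.84 ± 1.07 (limma adjusted p = 0.0715). Without chow replicate 3, whose column names HFD, they were 1.41 (limma adjusted p = 0.0199) and 1.52 (limma adjusted p = 0.0242), mir-17-5p also passed without chow replicate 2 (limma adjusted p = 0.0482), and both passed with a pseudocount of 10, a shared spread, plain-named entries only or a block. All 14 differences were above 0, with a median of 1.17 against 0.24 over all entries, although mir-106b-5p, mir-19a-3p and mir-20b-5p averaged under 50 RPMMM in chow cells and were tested through the conventionalized group. In this comparison 6 members lay higher without overlap, against 28.8% of all entries, and 0 lower, against 9.05%. With only conventionalized replicates 3 and 4, 0 members and 6 entries in all passed. The count also turned on single libraries: 0 members passed without conventionalized replicate 1 or 2, 1 without conventionalized replicate 3 or chow replicate 1, and 5 without conventionalized replicate 4 or chow replicate 3. All entries called were then 9, 7, 8, 20, 67 and 53, in that order, against 55. Summed mesenchymal microRNAs were 141 to 445 RPMMM in conventionalized and 50.01 to 75.2 in chow libraries, and leukocyte sums 228 to 385 and 420 to 1986, neither with overlap. In the mRNA of these groups all 8 enteroendocrine markers differed below 0 (median -1.44) and 0 passed, and the part of cell makeup was not tested.

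In germ-free against chow Low cells 0 of 10 members passed in limma, where 1.67% of all 239 entries were higher, 3.77% lower and 5.44% changed. In all, 13 entries passed, and 68 had an unadjusted p under 0.05, among them 3 members, mir-19b-1-3p, mir-19b-2-3p and mir-25-3p. In 0 members did the groups lie apart, against 9.62% of all entries higher and 7.11% lower without overlap. Differences were below 0 in 9 of the 10 members, with a median of -0.80 against 0.12 over all entries. Without chow replicate 3, 68 entries passed, and 4 members fell, mir-19b-1-3p (-1.21), mir-19b-2-3p (-1.19), mir-25-3p (-1.25) and mir-93-5p (-1.26). The mir-19b entries share a sequence. Leaving out chow replicate 1 turned the 13 into 7, and leaving out replicates 2, 3 and 4 of the germ-free group in turn gave 6, 5 and 7, with 0 members called in each. Enteroendocrine sums were 201320.0 to 288373 in germ-free and 85255 to 191909 in chow libraries, and their part was not tested.

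The mRNA of Sox9-EGFP Low cells was read for the host genes of the clusters, as normalized counts of the authors. In the Mcm7 transcript, host of miR-106b-25, values were 4350.0, 4424, 3732 and 5279 in conventionalized and 1973, 2832, 509.6 and 2538 in germ-free mice, and 3335, 3608, 2219.5 and 3636 on chow. Mice on high fat diet, for which no small RNA library was analysed here, read 4106, 3894, 4713 and 4548. Every germ-free library lay below every conventionalized library, where 6.21% of all 20214 genes did so, but the difference of -1.43 ± 0.45 did not pass (SE, n = 4 each, limma adjusted p = 0.132, and 0.0304 with the spread shared over all 4 mRNA groups). In that comparison 453 genes were called, 1.95% of all genes higher, 0.292% lower and 2.24% in either direction, and without germ-free replicate 1 only 1 gene was called. Without conventionalized replicate 1, 2 or 4 the count was 146, 148 or 253, and without germ-free replicate 2 or 3 it was 684 or 272. Mir17hg, the host transcript of miR-17-92a-1, was low, at 23.1, 29.9, 29.9 and 49.5 in conventionalized and 17.5, 29.8, 12.5 and 67.1 in germ-free mice, which overlapped (-0.29 ± 0.65, limma adjusted p = 0.801). The level of a host transcript need not follow that of the mature microRNAs.

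Genes reported to activate, process or be lowered by these microRNAs came from lists drawn up with earlier results known. Of 5 reported activators 0 passed. Myc, encoding the transcription factor that activates miR-17-92a-1, read 4374, 4818, 4681 and 7714 in conventionalized and 2502, 4007, 676 and 4651 in germ-free mice, which overlapped (-1.15, limma adjusted p = 0.232), and E2f1 differed by -0.92 (limma adjusted p = 0.209). Of 7 microRNA processing genes, among them Drosha (-0.36), Dgcr8 (-0.03), Dicer1 (-0.25) and Ago2 (-0.13), 0 passed.

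Of 13 reported targets tested, 1 was higher and 0 were lower in germ-free mice. It was Cdkn1a, which encodes the cell cycle inhibitor p21 and is a reported target of the miR-17 seed, at 6636, 4402, 6414 and 3749 normalized counts in germ-free and 2741, 1181, 1878 and 2227 in conventionalized mice, without overlap (6.26% of all genes were higher without overlap), a difference of 1.42 ± 0.31 (limma adjusted p = 0.0346). The call was lost in 6 of the 8 fits that left out 1 library, with limma adjusted p up to 0.118, and in chow mice Cdkn1a read 3786, 3313, 10196 and 6284. Of the 13, 10 differences were below 0, with a median of -0.29 against 0.11 over all genes. Bcl2l11, a pro-apoptotic miR-92 target, differed by -0.96 (limma adjusted p = 0.186) and Tgfbr2, a TGF-beta receptor, by -1.31 (limma adjusted p = 0.0963).

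Cell markers moved in the same comparison. Of 12 cycling markers, all with differences below 0, Cdk1 (-1.77, limma adjusted p = 0.0474) and Mki67 (-1.50, limma adjusted p = 0.0406) fell in germ-free mice. Of 8 enteroendocrine markers, all above 0, Neurod1 (2.39) and Tph1 (2.46) rose. Of 6 stem markers, all below 0, 0 passed. Of 6 enterocyte markers 1 rose, Sis, of 4 stromal or endothelial markers tested 1 rose, Pecam1, and of 5 leukocyte markers 0 passed. Of the 8 fits that left out 1 library, Cdk1 and Pecam1 were each lost in 6, Mki67 in 5, Sis and Tph1 in 2 and Neurod1 in 1, and without germ-free replicate 1 all 6 were lost, with limma adjusted p from 0.0518 to 0.129. The part of cell makeup in the microRNA differences was not tested. In conventionalized against chow mice 17 of 17941 genes were called, 0.0948% in all, the same share lower and 0% higher, and none was on these lists. Without any 1 of the 8 libraries, 0 to 6 genes were called there. There Mcm7 lay higher without overlap (0.49 ± 0.21, limma adjusted p = 0.419), against 2.17% of all genes, and Cdkn1a lower (-1.47 ± 0.36, limma adjusted p = 0.167), against 4.38%.

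Across the 12 mice with both assays, 8 relations between a host mRNA and a member were computed on the log2 scale, chosen after seeing the data. Mcm7 rose with mir-93-5p (Pearson r = 0.87, permutation p = 1e-05, the smallest the permutations can give, adjusted 4e-05; Spearman rho = 0.94, permutation p = 4e-05, adjusted 0.00032). Without the 2 mice farthest from the median of Mcm7, germ-free replicates 3 and 1, r was 0.93, and with group means removed it was 0.79 (permutation p = 0.0157, adjusted 0.0628). For mir-25-3p r was 0.88 (permutation p = 1e-05, adjusted 4e-05) and rho 0.86 (permutation p = 0.00063, adjusted 0.00168), with 0.89 without those mice and 0.75 within groups (permutation p = 0.0109, adjusted 0.0628).

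The third product, mir-106b-3p, gave r = 0.87 (permutation p = 8e-05, adjusted 0.000213) and rho = 0.89 (permutation p = 0.00026, adjusted 0.00104), with 0.87 without those mice and 0.74 within groups (permutation p = 0.0246, adjusted 0.0656). The low mir-106b-5p gave r = 0.50 (permutation p = 0.106, adjusted 0.212) and rho = 0.72 (permutation p = 0.0106, adjusted 0.0212), with r = 0.80 without those mice and 0.34 within groups. None of the within-group relations passed after adjustment over the 8. In conventionalized mice alone (n = 4), r with Mcm7 was 0.37 for mir-93-5p, 0.23 for mir-25-3p, 0.24 for mir-106b-3p and 0.07 for mir-106b-5p. In the same order, chow mice (n = 4) gave 0.98, 0.89, 0.82 and 0.90, and germ-free mice (n = 4) gave 0.97, 0.97, 0.95 and 0.58. For Mir17hg no relation passed: r was 0.29 with mir-17-5p (rho 0.28), 0.41 with mir-20a-5p (rho 0.34), 0.39 with mir-19b-1-3p (rho 0.38) and 0.36 with mir-92a-1-3p (rho 0.25), with permutation p from 0.181 to 0.429, adjusted 0.281 to 0.429. Without the mice farthest from its median, germ-free replicates 4 and 3, these r were 0.30, 0.37, 0.47 and 0.15. The groups differ in both assays, so the pooled r also holds the difference between groups.

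**Figure D4:**
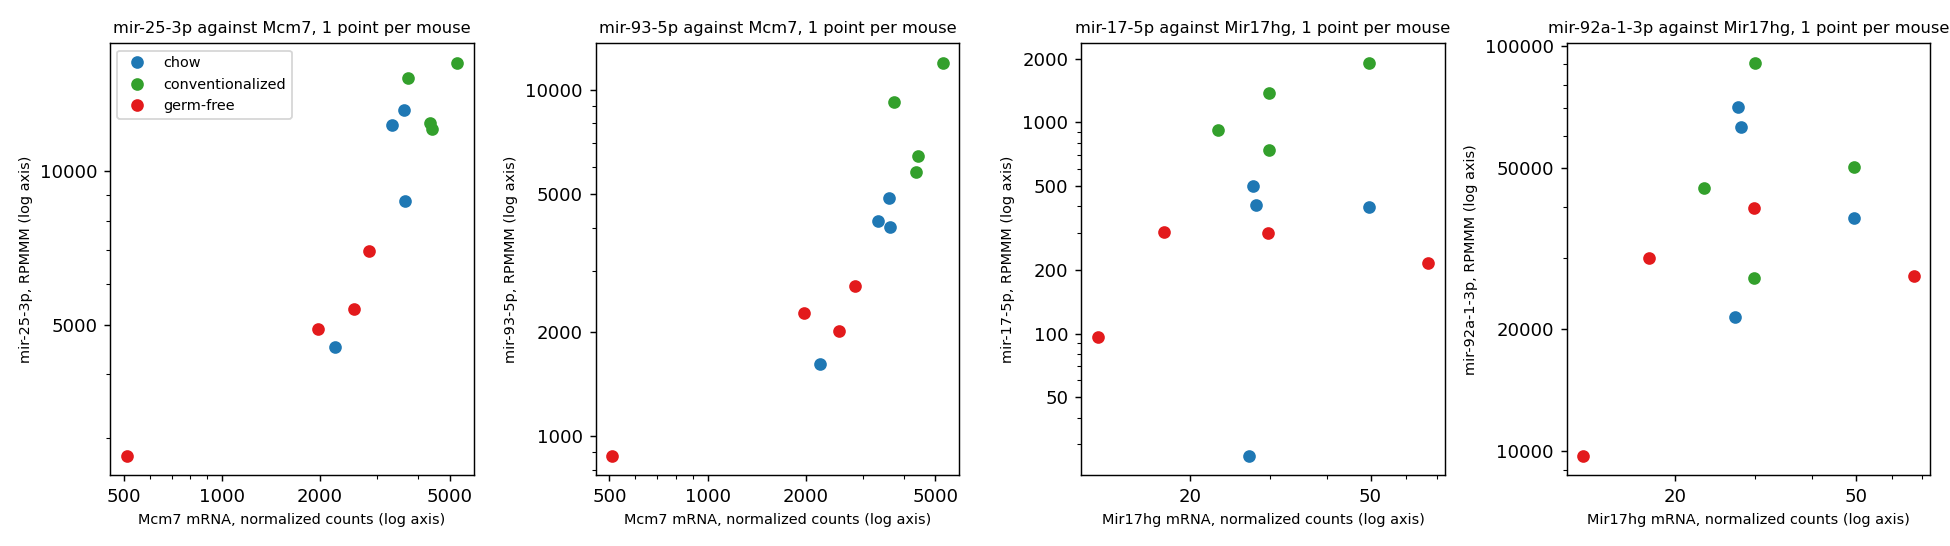
Host mRNA (normalized count, log axis) against mature microRNA (RPMMM, log axis) in the 12 mice with both assays; colours mark chow, conventionalized and germ-free mice. Points for Mcm7 with mir-93-5p and mir-25-3p rise together (r = 0.87 and 0.88), and those for Mir17hg with mir-17-5p are scattered (r = 0.29).

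In the authors' deposited table on APC mutant intestine, a model in which loss of the Wnt pathway inhibitor APC drives tumours, 21 of the 24 members were present. Of these, 4 had an authors' adjusted p under 0.05 and all 4 were higher in the mutant, where 20.3% of the 1060 entries of the authors' deposited table passed and 14% passed as higher. The members' count was thus near the background. The authors' deposited table gives mir-25-3p means of 85137 in mutant and 51673 in control samples (log2 fold change 0.72, authors' adjusted p = 0.0325). It gives mir-106b-3p means of 8200 and 3567 in the authors' deposited table (1.20, authors' adjusted p = 0.0126) and mir-25-5p means of 409 and 122 (1.75, authors' adjusted p = 0.00605), so 3 of the 4 came from miR-106b-25. The other members of that cluster did not pass in the authors' deposited table. They were mir-93-3p (authors' adjusted p = 0.288), mir-106b-5p (authors' adjusted p = 0.613) and mir-93-5p (authors' adjusted p = 0.666), with fold changes above 0. The fourth, mir-20a-3p, had authors' means of 16.6 and 0 in the authors' deposited table.

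Among the members of miR-17-92a-1 no entry but mir-20a-3p passed there, and their fold changes had both signs. Whether they differed from each other was not tested. In the authors' deposited table, mir-92a-1-3p had means of 183201 and 142745 (authors' adjusted p = 0.755), mir-17-5p 17336 and 17968 (0.993), and mir-19b-1-3p 7844 and 16702 (0.0719). Of the 21, 11 fold changes were above 0 and 10 below, with a median of 0.17 against -0.10 over the whole of the authors' deposited table. Its means are on a scale of their own and cannot be set beside RPMMM values, and a column name of 1 control sample contains MIN, a name for an Apc mutant mouse.

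By the likeness of group means, the summed miR-17-92a-1 entries were closest among 152 other microRNAs to mir-30c-2-3p (Pearson r = 0.98 over the 8 group means), mir-194-2-3p (0.96) and mir-423-3p (0.95). Of that sum, mir-92a-1-3p held 158360 of 159089 RPMMM in crypt replicate 2 and 1364 of 3013 in Cd24-Low replicate 4. The likeness is thus largely that of this entry. The summed miR-106b-25 entries were closest to mir-148a-3p (0.89), mir-181d-5p (0.86) and mir-34a-5p (0.78). These are descriptions over 8 points that share the scaling of each library.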

How the data were processed

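Small RNA libraries were made with the TriLink CleanTag kit and mRNA libraries by SMARTer Ultra Low Input amplification followed by Nextera XT, per the labels' protocols. Per the submitters' processing notes, the tools were Cell Ranger, STAR, Salmon and DESeq2 and the build was mm10, with no role given for each. The small RNA table was deposited as RPMMM, an RPM unit made by the authors in which each column sums to 1000000. No read depth could be recovered from it, and the smallest value above 0 was 0.33 to 5.92 RPMMM. The mRNA table was deposited as normalized counts, a signal that the authors scaled by library. Its 381 entries of 48440 without a gene name held 0.034% to 0.08% of a library and were left out. The authors' deposited APC table gives log2 fold changes with p-values and adjusted p-values. Suffixed microRNA names, whose suffix is not explained in the sources used here, held 1.21% to 3.04% of the reads beside these members' names and were not counted as members. A set of 4 small RNA columns could not be assigned to any sample and was left unused.

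Differences were tested with limma 3.58.1 (lmFit, eBayes with a trend) in R 4.3.3 on log2(value + 1), with only the 2 compared groups in each fit. Entries that averaged 50 RPMMM or more over the compared libraries were tested, and genes that averaged 10 normalized counts or more. A call is a two-sided Benjamini-Hochberg adjusted p under 0.05 over all tested entries, and fold changes of low entries are understated on this scale. The fits were tested on simulated data. Every member is accounted for, and genes were named from the host, activator, processing, target and marker lists. The members and lists were chosen with earlier results of these data known. Sequences and hairpin positions came from RefSeq on GRCm38.p6 and gene models from GENCODE on GRCm38, used to place genes by name.

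Groups came from titles and source names. Low and Negative cells of the same number come from the same mouse by label, and the fit with the mouse as a block changed no call among the members. Their deviations from the group means correlated between -0.20 and 0.20 across entries. Mice were matched between the assays by animal number. Correlations used 100000 permutations (scipy 1.17.1, numpy 2.4.6), with pandas 2.3.3 under Python 3.11.15, and plots used matplotlib 3.10.9. Alternatives were another pseudocount (10), no filter, median-of-ratios scaling, a spread shared over groups, plain-named entries only, a block and leaving out each library.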

Additional observations from a re-analysis of the deposited data

Results flagged for a closer look

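Among 113 groups of 4 libraries examined, 8 held a value whose gap to its nearest neighbour exceeded the 95% critical value of Dixon's test, where chance gives about 1 in 20 groups. In Sox9-EGFP Low chow cells, replicate 3 stood apart with mir-17-5p at 26.4 RPMMM, against 398 to 501 in the other 3 libraries, and with mir-20b-5p at 0, against 28.8 to 43.8. In germ-free Low cells, replicate 3 stood apart with mir-20a-5p at 37.5, against 165 to 196. In crypts, replicate 3 stood apart with mir-19a-3p at 0, against 11.2 to 13.0, and with mir-19b-2-3p at 16.1, against 34.0 to 39.6. In Cd24-Low cells, replicate 3 was the highest with mir-92a-1-5p at 87.2, against 31.4 to 35.5, and with mir-92a-2-3p at 467, against 227 to 251. In the mRNA of chow mice, Mir17hg was 49.6 normalized counts in replicate 4, against 27.0 to 27.9 in the other 3.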

How the results depend on the processing

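In germ-free against conventionalized Low cells 11 members passed in each fit without 1 library, and 107 entries in all became 91 to 132. With only conventionalized replicates 3 and 4, chosen after seeing the data, the values were 6 and 59. In Low against Negative cells the 4 members became 9 with no filter on low values and 3 to 6 without 1 library, and the 141 entries became 336 and 125 to 148. In crypts against villi the 5 members became 8 with no filter, 3 after median-of-ratios scaling and 4 to 7 without 1 library. The 112 entries became 173 with no filter, 66 among plain-named entries and 89 to 116 without 1 library. In Lgr5-High against Cd24-Low cells the 4 members became 1 to 5 without 1 library, and the 93 entries became 186 with no filter, 54 among plain-named entries and 54 to 113 without 1 library.

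In conventionalized against chow Low cells the 3 members became 5 with a pseudocount of 10, 1 after median-of-ratios scaling, 9 with a shared spread, 5 among plain-named entries, 0 with only conventionalized replicates 3 and 4 and 0 to 5 without 1 library. The 55 entries became 31, 98 and 6 under median-of-ratios scaling, a shared spread and those 2 replicates, and 7 to 67 without 1 library (9, 7 and 8 without conventionalized replicates 1, 2 and 3, and 20 without chow replicate 1). In germ-free against chow Low cells the 0 members became 0 to 4 without 1 library, and the 13 entries became 31 with no filter and 5 to 68 without 1 library. For mRNA, the 453 genes in germ-free against conventionalized mice became 1672 with a shared spread and 1 to 684 without 1 library, and the 17 in conventionalized against chow mice became 39 with no filter, 26 with a shared spread and 0 to 6 without 1 library.

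With the replicate number as a block, which pairs mice by label only in Low against Negative cells (4 members, 139 entries), the values were 7 members in conventionalized against chow Low cells, 4 members and 35 entries in germ-free against chow Low cells, and 165 genes in conventionalized against chow mRNA. In the other comparisons the number is shared only by name. No member or listed gene that was called changed direction under any alternative run, and the cause of these changes was not tested. Without read depth, values near the smallest value above 0 carry an unknown counting error.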
